A study of Mus musculus with 96 samples.

Results

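Microglia sorted from the brain hemisphere of old control mice were compared with those of young control mice, both labelled 6 h. The comparison held 12 of the 96 libraries of the series, 8 from old and 4 from young animals, and its members were every hemisphere library titled as a control at 6 h. All animals were wild-type mice, aged 20 to 22 months in the old groups and 3 to 5 months in the young groups. Each library was made from 1000 cells sorted as Fcrls+, CD11b+ and Ly6C- and lysed directly. The other libraries of the series came from animals given abdominal surgery, from 48 h, or from the hippocampus. Hemisphere and hippocampus libraries share numbers in their names, which were read as 1 animal each. The labels do not say what the controls underwent in place of surgery, nor their sex or litter, and the p-values below measure only the spread between these animals.

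Microglia are the resident macrophages of the brain. In the healthy adult brain they carry a homeostatic set of surface receptors, among them the ADP receptor P2ry12 and the fractalkine receptor Cx3cr1, with which they survey the tissue. In aged and diseased brain, part of the population is known to take up a so-called disease-associated state, with genes of lipid transport and phagocytosis (Apoe, Lyz2, Axl, Clec7a, Cst7), an interferon-stimulated state, or an antigen-presenting state with MHC genes. Interferon-stimulated genes are switched on by factors that bind GAAA repeats in their promoters, and MHC class II promoters carry a Y box, which holds the letters CCAAT.

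The promoters below were searched for those elements in 6 genes of the interferon and MHC lists. Of these, 3 passed the test (Ifitm3, H2-Q7, H2-Aa) and 3 did not (Bst2, Oas1a, H2-Eb1). Each is the 250 bases before the RefSeq start site in GRCm38.p6, written along the gene's strand from 5′ to 3′. Capitals mark GAAANNGAAA, an interferon-response repeat, or CCAAT, searched on both strands. The windows lie at chr7:141010745-141010994 (minus strand), chr8:71537473-71537722 (minus), chr5:120907526-120907775 (minus), chr17:35438905-35439154 (plus), chr17:34287824-34288073 (minus) and chr17:34305617-34305866 (plus).
Ifitm3: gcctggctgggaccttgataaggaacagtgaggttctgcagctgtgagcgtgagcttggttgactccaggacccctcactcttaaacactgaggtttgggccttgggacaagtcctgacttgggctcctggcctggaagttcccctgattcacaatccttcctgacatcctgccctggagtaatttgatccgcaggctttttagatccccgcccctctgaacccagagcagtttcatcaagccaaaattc
Bst2: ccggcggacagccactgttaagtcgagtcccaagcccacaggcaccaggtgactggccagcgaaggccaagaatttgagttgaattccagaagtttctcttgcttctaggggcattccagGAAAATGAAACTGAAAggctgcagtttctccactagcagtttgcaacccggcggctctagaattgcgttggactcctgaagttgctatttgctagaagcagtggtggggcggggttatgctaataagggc
Oas1a: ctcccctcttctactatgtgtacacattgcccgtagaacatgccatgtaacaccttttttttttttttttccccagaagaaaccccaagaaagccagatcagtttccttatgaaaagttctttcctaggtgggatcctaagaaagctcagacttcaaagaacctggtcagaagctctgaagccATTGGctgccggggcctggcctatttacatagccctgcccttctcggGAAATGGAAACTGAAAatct
H2-Q7: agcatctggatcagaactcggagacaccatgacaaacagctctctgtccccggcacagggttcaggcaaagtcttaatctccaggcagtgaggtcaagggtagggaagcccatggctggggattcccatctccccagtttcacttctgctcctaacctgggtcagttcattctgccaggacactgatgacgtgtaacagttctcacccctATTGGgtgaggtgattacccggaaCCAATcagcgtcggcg
H2-Aa: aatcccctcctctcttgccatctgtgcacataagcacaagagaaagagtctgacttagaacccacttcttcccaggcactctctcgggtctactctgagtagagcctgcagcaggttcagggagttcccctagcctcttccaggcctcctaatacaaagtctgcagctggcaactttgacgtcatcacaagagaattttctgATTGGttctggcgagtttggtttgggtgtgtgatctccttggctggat
H2-Eb1: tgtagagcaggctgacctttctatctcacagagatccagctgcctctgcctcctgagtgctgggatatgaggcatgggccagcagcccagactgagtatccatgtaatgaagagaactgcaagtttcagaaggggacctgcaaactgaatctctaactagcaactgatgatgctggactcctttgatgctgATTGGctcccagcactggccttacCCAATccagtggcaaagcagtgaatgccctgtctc

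Bst2 and Oas1a each held 2 overlapping copies of GAAANNGAAA, at -130 to -121 and -124 to -115 in Bst2 and at -20 to -11 and -14 to -5 in Oas1a, counted from the start site. The window of Ifitm3 held neither motif. Among the interferon-stimulated genes tested, 9 of the 20 with a window held the repeat, against 3.39% of the 8812 genes tested that had a window. A gene was counted where any of its windows held the motif. Over single windows the repeat was found in 978 of all 32851 (2.98%). CCAAT on either strand was found in 33.8% of all single windows and in 40.4% of the genes tested that had a window. It was found in 7 of the 7 MHC class II genes with a window and 12 of 16 MHC class I genes. A match is a description of these letters only.

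The 12 libraries were alike in depth. Total estimated counts ran from 2057003 to 2900306 in the old and from 2166935 to 2804054 in the young, and 15 gene models held 64.1% to 78.3% and 69.8% to 77.3% of them, leaving 495514 to 783198 and 524525 to 777629 counts for the other models. Of 8 library measures compared by an exact two-sided permutation test over 495 splits, none differed after adjustment. The smallest p was 0.0384 (adjusted 0.154), for the median correlation with the libraries of the same group (0.756 to 0.846 in old, 0.838 to 0.862 in young) and for the share of Malat1. Old replicate 7 stood apart. Its low counts came in steps, with only 12.2% ones among its values of 1 to 3 against at least 49.6% in the other 11 controls, and it had that lowest correlation of 0.756. Results are therefore also given without it.

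The sort was checked against marker genes. Itgam, which encodes CD11b, lay at 73.4 to 116 CPM (the usual scaling of counts to library size, here with edgeR's TMM factors) in the old and 74.4 to 126 in the young, and Ly6c2 reached at most 2.33. Fcrls was present in every library, at 194 to 375 CPM in the old and 334 to 583 in the young. The 11 border macrophage markers summed to a median of 172 CPM in the old (highest 236) and 190 in the young (highest 232), nearly all of it Stab1 (90.3 to 218 and 157 to 208 CPM), and the others were low, with Mrc1 at most 4.10 CPM, Cd163 at most 3.43 and Pf4 at most 2.15. The summed choroid plexus list reached 227 CPM in the old and 36.1 in the young, mostly through Ttr, which was 9.14 to 190 CPM in the old and 0, 19.5, 0 and 0 CPM in young replicates 1 to 4. The summed B cell list reached 703 CPM in the old (median 117) and 158 in the young (median 135), with Ighm at 408 CPM and Igkc at 244 CPM in old replicate 3. Of the 13 marker lists the oligodendrocyte list had the highest median sum, at 325 CPM in the old (265 to 405) and 291 in the young (234 to 327). Its 5 tested genes all had a positive log2 fold change, with 0 called. The part of these cells in the results below was not tested.

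**Figure D1:**
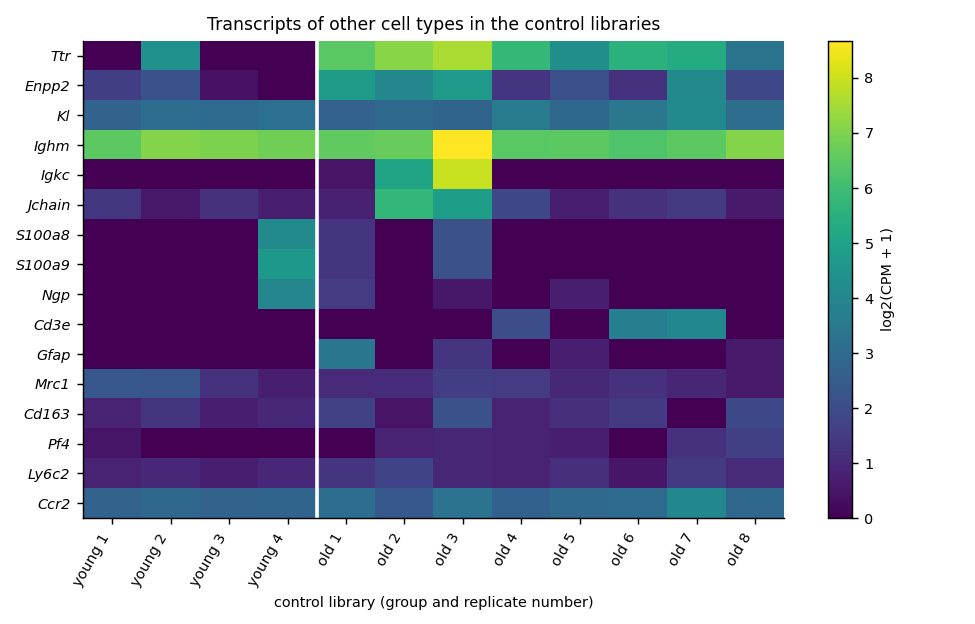
Heat map of log2(CPM + 1) for marker genes of other cell types, Ly6c2 among them (rows), in the 12 control libraries (columns, young replicates 1 to 4 and old replicates 1 to 8). Itgam, Fcrls and the oligodendrocyte genes are not shown. Ttr, Ighm and Igkc are uneven between libraries, with Ighm and Igkc brightest in old replicate 3.

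Of 12760 genes tested, 8 were higher and 2 lower in old controls at an adjusted p below 0.05 (edgeR quasi-likelihood test, Benjamini-Hochberg adjustment), which is 0.0627% and 0.0157% of the genes. The 8 higher genes were Apoe, Lyz2, Lilrb4a, Fam20c, Ifitm3, Ifi27l2a, H2-Q7 and H2-Aa, and the 2 lower genes were Ankrd26 and Phf6. In each of the 8, every old library lay above every young library, a pattern found in 73 genes (0.572%) over the whole table. The reverse pattern was found in 39 genes (0.306%), of which Ankrd26 was one. The number of calls depended on single libraries. Without a single old library the count of called genes was 2 (without replicate 1, 3, 6, 7 or 8), 4 (without 5), 8 (without 4) or 12 (without 2), and without a single young library it was 6 (without 1), 0 (without 2 or 4) or 1 (without 3). In each case without an old replicate 1, 3, 6, 7 or 8 the 2 genes that passed were Lilrb4a and Phf6. DESeq2 on the same libraries called 47 genes, which included all 10, limma-voom called 1, and the 3 old controls whose library numbers fall among those of the young (42 to 54) gave 0. With those 3, Apoe was at 2.17, H2-Aa at 2.80, Ifi27l2a at 2.39, Lyz2 at 1.23, Lilrb4a at 1.89, H2-Q7 at 1.19 and Phf6 at -2.27 on the log2 scale, with adjusted p of 0.566 or more. What the numbers stand for is not stated in the labels, and for the other old controls number and age cannot be told apart.

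**Figure D2:**
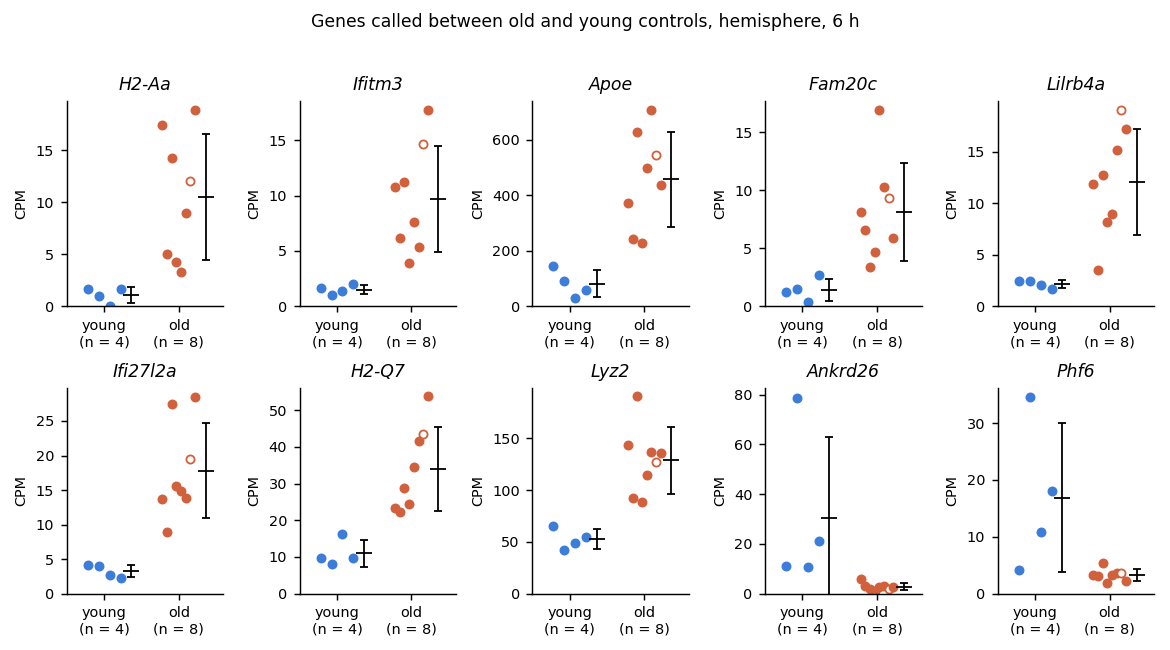
CPM of the 10 called genes in each control library (points, young in blue and old in orange, the open point being old replicate 7) with the mean and SD beside them. In the 8 genes higher in old every old point lies above every young point, and in Ankrd26 and Phf6 the young points spread widely.

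From the lists of lipid handling and of the disease-associated state, Apoe, Lyz2 and Lilrb4a rose. Apoe (chr7:19696109-19699188, mm10), the apolipoprotein that carries cholesterol between brain cells, was at 145, 89.7, 31.8 and 60.6 CPM in young replicates 1 to 4 and at 229 (lowest), 466 (median) and 707 CPM (highest) in the old. The lowest old library was thus above the highest young one. Apoe rose from 81.8 ± 48.4 (SD, n = 4) to 457 ± 172 CPM (SD, n = 8), a log2 fold change of 2.48 (SE 0.47, adjusted p = 0.0417). The mean estimated counts behind these were 202 and 1078 per library, and without old replicate 7 the change was 2.45 (adjusted p = 0.0781). Astrocytes also make Apoe, and the summed astrocyte list lay at 37.5 to 78.2 CPM in the old and 33.1 to 49.2 in the young, whose part was not tested. In bulk libraries such as these, a higher share of cells of a type and more RNA per cell cannot be told apart.

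Lyz2 (chr10:117277331-117282321), the lysozyme of macrophages that degrades bacterial cell walls, was at 65.6, 42.1, 48.7 and 54.9 CPM in the young and at 88.7, 132 and 191 CPM (lowest, median, highest) in the old. The young libraries lay close together and below all old ones. Lyz2 rose by a log2 fold change of 1.28 (SE 0.23, adjusted p = 0.0417), and its change without old replicate 7 was 1.29 (adjusted p = 0.0634). Lyz2 is also abundant in monocytes and neutrophils, whose summed lists ran from 19.0 to 45.8 and 114 to 239 CPM in the old and from 22.5 to 29.1 and 123 to 263 CPM in the young.

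Lilrb4a (chr10:51490956-51496611), an inhibitory receptor of myeloid cells with cytoplasmic motifs that recruit phosphatases, was at 2.46, 2.51, 2.03 and 1.67 CPM in the young. The old libraries lay at 3.49, 12.3 and 19.1 CPM (lowest, median, highest), with replicate 2 the lowest and the only one under 8 CPM. Lilrb4a rose by a log2 fold change of 2.46 (SE 0.40, adjusted p = 0.0131), on a mean of 5.50 counts per young library and 28.0 per old library. Of the 8 higher genes it passed most often with 1 library left out, in 9 of 12 cases, and old replicate 7 was not needed for it (2.33, adjusted p = 0.0244). Fam20c (chr5:138754514-138810077), the Golgi kinase that phosphorylates secreted proteins, rose from 1.44 ± 0.97 to 8.16 ± 4.22 CPM (log2 fold change 2.47, SE 0.49, adjusted p = 0.0424), on a mean of 3.75 counts per young library. Fam20c belonged to no list and lay under the expression limit for naming, and is named because it was among the few that passed.

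The disease-associated list had 26 genes, of which 23 passed the filter on low counts. Lyz2 and Lilrb4a were its 2 called members, all 23 had a positive log2 fold change, and the median was 0.72 against 0.03 over all genes tested. In 9 of the 23 the young mean was under 10 counts and the filter was passed through other groups, so the count of positive values is a description only. In 6 members no old library overlapped a young one (Axl, Cst7, Cd63, Cd52, Lyz2 and Lilrb4a), with or without old replicate 7, a pattern held by 0.572% of all genes tested with it and 0.792% without it. Gpnmb, Ch25h and Fabp5 had too few counts to be tested.

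Several well known markers of that state differed widely without passing the test. Axl, a receptor kinase for the removal of dying cells, was at 2.87, 0.50, 0.68 and 1.34 CPM in the young and at 10.5, 16.7 and 28.4 CPM (lowest, median, highest) in the old. No library overlapped, and the log2 fold change was 3.65 (SE 0.83, adjusted p = 0.131). Axl passed in 2 of 10 other settings, with adjusted p = 0.00157 by DESeq2 and 0.00367 when only the 12 control libraries were fitted with edgeR. In the other 8, and in all 12 fits with 1 library left out, it did not pass. Cst7, the cysteine protease inhibitor cystatin F, was at 1.25 ± 0.30 CPM (SD, n = 4) in the young and 4.27 to 31.7 CPM in the old (3.47, SE 0.78, adjusted p = 0.131). Clec7a, the beta-glucan receptor dectin-1, was at 6.15, 2.51, 0.34 and 1.67 CPM against 5.84 to 36.1 CPM, so that the lowest old library fell under young replicate 1 (2.85, SE 0.75, adjusted p = 0.208). Cd63, a tetraspanin of late endosomes, gave 0.62 (SE 0.17, adjusted p = 0.258), and Cd52, a small glycoprotein of the leukocyte surface, gave 1.41 (SE 0.34, adjusted p = 0.166).

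The integrin Itgax (CD11c) gave 1.35 (SE 0.59, adjusted p = 0.675), and 6 of 8 old libraries lay above all young ones. Lgals3 and Spp1, the secreted proteins galectin-3 and osteopontin, were near the limit of detection. Lgals3 was at 0 to 13.7 CPM in the old and 0 to 2.05 in the young, and Spp1 at 0 to 18.6 CPM in the old and 0.82, 0, 0 and 0 in the young (adjusted p = 0.426 and 0.297). The highest old library was replicate 3 for both. By contrast, the receptor Trem2 and its adaptor Tyrobp, through which the disease-associated state is known to be reached, differed little, with log2 fold changes of 0.18 (SE 0.14, adjusted p = 0.815) and 0.29 (SE 0.16, adjusted p = 0.778). Trem2 was at 250, 276, 250 and 224 CPM in the young and 239 to 368 CPM in the old, and the groups overlapped. The lysosomal proteases Ctsb and Ctsd overlapped as well, at 0.19 (SE 0.23) and -0.08 (SE 0.17).

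The lipid handling list as a whole did not follow Apoe. Of its 15 genes tested 6 had a positive and 9 a negative log2 fold change, with a median of -0.16. Apoe was the called member. Acsl1, which activates long-chain fatty acids, was at 11.9, 10.5, 32.5 and 15.4 CPM in the young and 3.56 to 13.6 CPM in the old (-0.99, SE 0.40, adjusted p = 0.624). Abcg1, a cholesterol exporter, gave -0.59 (SE 0.23, adjusted p = 0.607) and Lipa, the lysosomal acid lipase, -0.46 (SE 0.19, adjusted p = 0.649). The 13 cholesterol synthesis genes had a median of -0.06.

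Among interferon-stimulated genes, Ifitm3 and Ifi27l2a were called. Ifitm3 (chr7:141009586-141010770), a membrane protein that blocks entry of enveloped viruses, was at 1.64, 1.00, 1.35 and 2.01 CPM in the young and at 3.89, 9.19 and 17.7 CPM (lowest, median, highest) in the old. The lowest old library, replicate 4, still lay above the highest young one. Ifitm3 rose by 2.62 on the log2 scale (SE 0.51, adjusted p = 0.0424), on a mean of 4 counts per young library and 22.4 per old library. Ifi27l2a (chr12:103442167-103443680), a small protein induced by interferon, was at 4.10, 4.01, 2.70 and 2.34 CPM against 8.93, 15.2 and 28.5 CPM. It rose by 2.43 (SE 0.48, adjusted p = 0.0424). Without old replicate 7 the changes were 2.51 and 2.41, both with adjusted p = 0.0781.

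Of the 37 genes of the interferon list 28 were tested. 25 of the 28 had a positive log2 fold change, and the median was 0.83. At an unadjusted p under 0.05 12 were higher and 0 lower, where 3.54% and 3.3% of all genes passed that limit in each direction. In 10 of the 28 the young mean was under 10 counts and the filter was passed through other groups, so the counts over this list are a description only. In 7 members no library overlapped (0.572% of all genes): Ifitm3, Ifi27l2a, Oas1a, Mx1, Bst2, Slfn2 and Sp100. Bst2 (tetherin), which holds budding virus at the cell surface and whose promoter carries the repeats printed above, was at 8.11 to 11.1 CPM in the young and 16.3, 21.6 and 27.9 CPM in the old (1.14, SE 0.25, adjusted p = 0.0921). Oas1a, the sensor of double-stranded RNA that makes oligoadenylates, was at 3.28, 2.51, 1.69 and 0 CPM against 3.57 to 11.6 CPM (2.06, SE 0.74, adjusted p = 0.534). Sp100, a nuclear body protein, gave 1.31 (SE 0.30, adjusted p = 0.131), Slfn2 gave 1.16 (SE 0.29, adjusted p = 0.183) and the GTPase Mx1 gave 1.40 (SE 0.41, adjusted p = 0.308).

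Not all interferon genes stood out. Irf7 gave 1.91 (SE 0.79, adjusted p = 0.637) and Ifit3 1.38 (SE 0.60, adjusted p = 0.673). Usp18, which switches the receptor off, gave 0.07 (SE 0.71, adjusted p = 0.993). Ifit1, Ifit2, Ifit3b, Isg15, Rsad2, Ifi207, Ifi44, Zbp1 and Cxcl10 had too few counts for the test, and 10 of the 28 tested had a mean under 10 counts in the young.

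H2-Q7 was the called gene of MHC class I, whose molecules show peptides from inside the cell to CD8 T cells. H2-Q7 (chr17:35439155-35443773), a non-classical class I molecule, was at 9.84, 8.02, 16.2 and 9.70 CPM in the young and at 22.1, 31.7 and 53.8 CPM (lowest, median, highest) in the old. Young replicate 3, the highest young library, lay below all old libraries. It rose by 1.62 (SE 0.32, adjusted p = 0.0424), and by 1.56 without old replicate 7 (adjusted p = 0.0781). H2-Q7 and H2-Q6 are near copies of each other, and the labels do not say how reads between such genes were shared. H2-Q6 gave 1.85 (SE 0.40, adjusted p = 0.0921).

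The classical molecule H2-K1 was just outside the threshold. It was at 127, 91.7, 101 and 103 CPM in the young and 135, 191 and 209 CPM in the old, with no overlap (0.79, SE 0.16, adjusted p = 0.0622). B2m, the shared light chain, was at 286, 257, 247 and 291 CPM against 336 to 484 CPM, again with no overlap (0.57, SE 0.15, adjusted p = 0.208). H2-D1 overlapped, at 95.2 to 171 CPM in the young and 104 to 249 CPM in the old (0.60, SE 0.27, adjusted p = 0.678). The machinery that cuts and loads peptides showed no such separation, with the transporter Tap1 at 0.15 (SE 0.28) and the immunoproteasome subunit Psmb8 at -0.05 (SE 0.24). Over the 19 class I genes, 16 were positive, the median was 0.34 and 4 did not overlap (H2-K1, B2m, H2-Q6 and H2-Q7), against 0.572% of all genes tested.

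In MHC class II, which presents peptides taken up from outside to CD4 T cells, H2-Aa was called. H2-Aa (chr17:34282744-34287823), the alpha chain, was at 1.64, 1.00, 0 and 1.67 CPM in the young and at 3.32, 10.5 and 18.8 CPM in the old. All old libraries lay above the young ones, with replicates 5 and 4 the lowest. H2-Aa rose by 3.23 (SE 0.64, adjusted p = 0.0424), but on a mean of 2.75 counts per young library, so the size of the fold is poorly fixed. Without a single library it lay between 2.78 and 3.56.

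Cd74, the invariant chain that guides class II molecules, was at 9.43, 8.02, 1.01 and 4.35 CPM in the young and at 11.6, 21.7 and 34.3 CPM in the old, with no overlap (1.98, SE 0.51, adjusted p = 0.194, and 0.0163 by DESeq2). DESeq2 was the only 1 of 10 other settings in which Cd74 passed, and it passed in 0 of 12 fits with 1 library left out. H2-Ab1 and H2-Eb1, the beta chains, gave 1.66 (SE 0.45, adjusted p = 0.248) and 2.38 (SE 0.62, adjusted p = 0.208), and in each 7 of 8 old libraries lay above all young ones. All 9 tested genes of the list of 10 were positive, with a median of 0.86, and Ciita, the class II transactivator, had too few counts. In 2 of the 9 the young mean was under 10 counts and the filter was passed through other groups, so this count of positive values is a description only. B cells carry class II genes too. Their summed list was highest in old replicate 3, where H2-Aa was at 14.2 CPM, against an old median of 10.5 and a highest value of 18.8 CPM. The part of B cells in the class II values was not tested.

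Beside H2-Q7 and H2-Q6, other called genes have near-identical relatives (Lilrb4b, Lyz1 and the Ifitm family), so their counts are uncertain to the extent that reads could not be told apart.

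**Figure D3:**
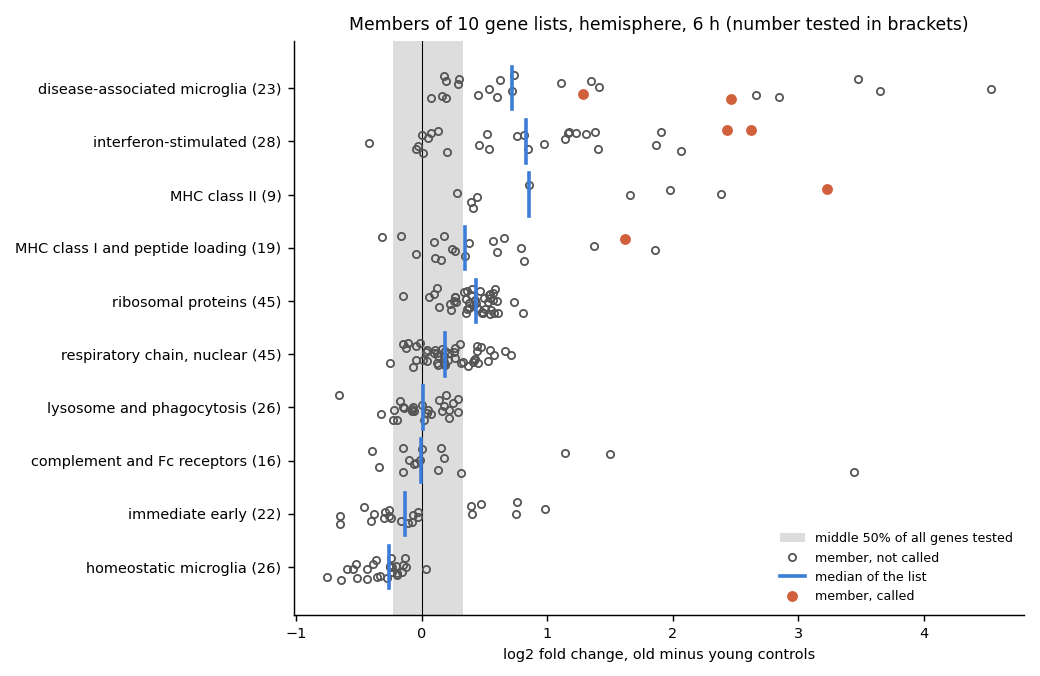
Log2 fold change, old over young controls, of each tested member of 10 gene lists (points, orange where called), with the list's median as a blue mark and the interquartile range of all genes tested as a grey band. The members of the disease-associated, interferon, MHC and ribosomal lists lie mostly above the band's centre, and those of the homeostatic list mostly below.

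The genes that mark resting microglia pointed the other way, and none of them passed the test. Of 26 homeostatic genes all were tested, 25 had a negative log2 fold change and the median was -0.26. At an unadjusted p below 0.05, 10 were lower and 0 higher, against 3.3% and 3.54% of all genes. P2ry12 was the 1 member with all old libraries below all young ones, a pattern held by 0.306% of all genes tested. It was at 693, 638, 591 and 601 CPM in the young and at 372, 438 and 477 CPM (lowest, median, highest) in the old, or 631 ± 46.2 (SD, n = 4) against 433 ± 39.7 CPM (SD, n = 8). The gap between the groups was wider than the spread within either. Its log2 fold change was -0.54 (SE 0.14, adjusted p = 0.194 with edgeR and 0.00206 with DESeq2), and over 12 left-out libraries it stayed between -0.58 and -0.50. P2ry12 passed in 1 of 10 other settings, which was DESeq2, and in 0 of the 12 fits with 1 library left out.

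P2ry13, another ADP receptor, gave -0.64 (SE 0.22, adjusted p = 0.513), Gpr34, a lysophosphatidylserine receptor, -0.52 (SE 0.18, adjusted p = 0.474), and Cd164, a sialomucin, -0.75 (SE 0.30, adjusted p = 0.619). Cx3cr1 was at 1654, 1331, 1057 and 1045 CPM in the young and 681 to 1162 CPM in the old (-0.44, SE 0.18, adjusted p = 0.620). Young replicates 3 and 4 thus lay within the range of the old. Fcrls, which served as a sort marker, gave -0.60 (SE 0.22, adjusted p = 0.573). Tmem119, a surface marker of microglia, overlapped most, at 748, 694, 580 and 496 CPM against 414 to 684 CPM (-0.21, SE 0.16, adjusted p = 0.818). The receptor for colony-stimulating factor, Csf1r, gave -0.39 (SE 0.22) and the microglial transcription factor Sall1 -0.15 (SE 0.15). Without old replicate 7, the lowest library for Fcrls, Gpr34 and Cx3cr1, all 26 were negative and the median was -0.25.

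**Figure D4:**
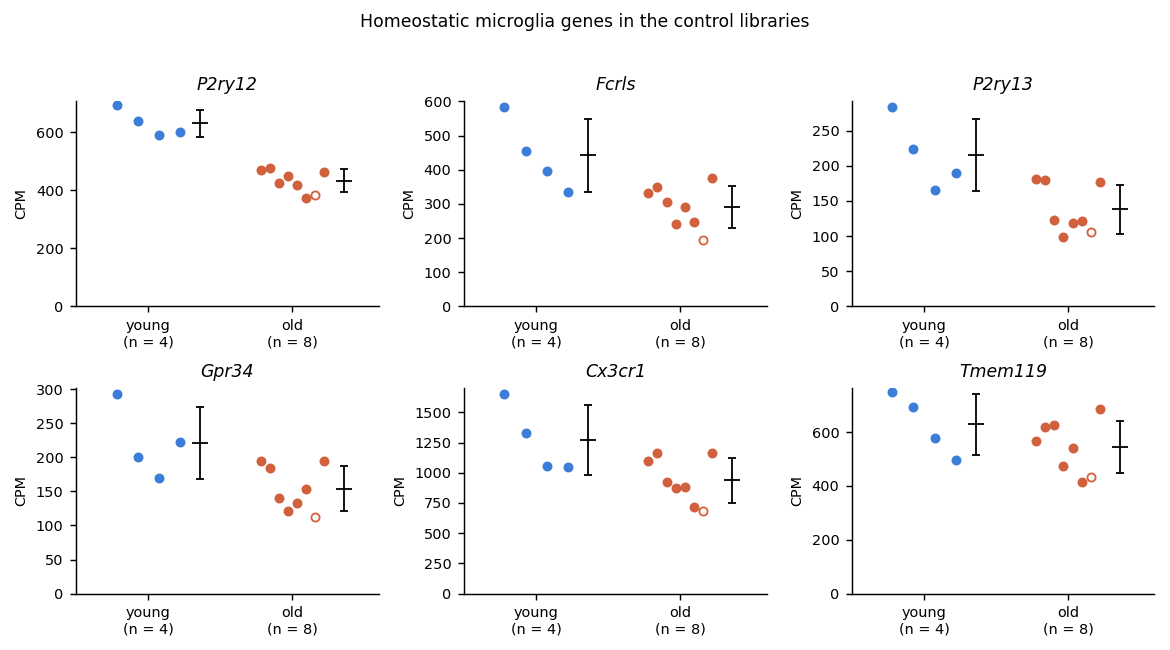
CPM of 6 homeostatic genes in each control library (points, the open point being old replicate 7) with the mean and SD. The groups are apart in P2ry12 (372 to 477 against 591 to 693 CPM) and overlap in the other 5 genes.

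Ribosomal protein genes, whose products build the translation machinery, had small positive values and no call. Of 45 ribosomal protein genes 44 had a positive log2 fold change, the median was 0.44, and 24 were higher and 0 lower at an unadjusted p under 0.05 (3.54% and 3.3% of all genes). In 5 genes no library overlapped (Rpl19, Rplp0, Rpl3, Rpl7 and Rps14), and in 10 without old replicate 7, against 0.572% and 0.792% of all genes tested. Rpl19 was at 64.4, 86.7, 69.3 and 78.3 CPM in the young and 94.7 to 139 CPM in the old (0.57, SE 0.15, adjusted p = 0.203). The nuclear genes of the respiratory chain were positive in 37 of 45 with a median of 0.19, and the 13 mitochondrial genes in 11 with a median of 0.25. Ribosomal genes have many near-identical pseudogenes, so their counts are uncertain.

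No member of the lists of inflammation, lysosome and cell fate was called, apart from Lilrb4a among the inhibitory receptors. The 21 cytokine and NF-kB genes were split into 11 positive and 10 negative with a median of 0.02. Tnf was at 5.33, 7.52, 8.45 and 12.4 CPM in the young and 8.60 to 26.9 CPM in the old (0.86, SE 0.40, adjusted p = 0.704), and Il1b had too few counts for the test, at 0 to 1.00 CPM against 0 to 4.31 CPM. Of the chemokines, Cxcl16, a membrane-bound ligand for T cells, did not overlap, at 14.4, 15.5, 18.6 and 7.70 CPM in the young and 20.2 to 49.8 CPM in the old (1.23, SE 0.29, adjusted p = 0.143), while Ccl3 and Ccl4 gave -0.07 (SE 0.31) and 0.28 (SE 0.33). Complement and Fc receptor genes were positive in 8 of 16 and lysosome genes in 14 of 26. The inhibitory receptors were positive in 8 of 16. Beside Lilrb4a, Cd22, a sialic acid-binding receptor, did not overlap (1.13, SE 0.31, adjusted p = 0.249). The pattern of Cxcl16, Lilrb4a and Cd22, with all old libraries above all young ones, was held by 0.572% of all genes tested.

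Cdkn2a, the cell cycle inhibitor used as a mark of senescence, had 0 counts in all 12 libraries. Cdkn1a, another cell cycle inhibitor, induced by p53, was at 12.2 to 23.8 CPM in the young and 14.4 to 24.9 CPM in the old (0.15, SE 0.25, adjusted p = 0.930). Senescence and p53 targets were positive in 5 of 12. Mki67, made by dividing cells, was at 0.82 to 2.34 CPM against 1.00 to 6.85 CPM (0.86, SE 0.55, adjusted p = 0.795), and cell cycle genes were positive in 13 of 19. Fkbp5, induced by glucocorticoids, was at 10.7 to 30.4 CPM in the young and 8.96 to 17.1 CPM in the old (-0.62, SE 0.28, adjusted p = 0.678). Immediate early genes, which answer within minutes to handling, were positive in 6 of 22 with a median of -0.14. Fos gave -0.40 (SE 0.33) and Egr1 -0.26 (SE 0.33). The heat shock, circadian, TGF-beta and redox lists had medians of -0.05, 0.01, -0.19 and 0.14.

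In both genes called lower the young libraries spread widely, with replicate 2 the highest. Ankrd26 (chr6:118501308-118562226), an ankyrin-repeat protein of the centriole, was at 11.1, 78.7, 10.8 and 21.1 CPM in the young and at 1.17, 2.67 and 5.93 CPM (lowest, median, highest) in the old. It fell by 3.39 on the log2 scale (SE 0.63, adjusted p = 0.0417), and without young replicate 2, the highest, the value was -2.33 (adjusted p = 0.309). Phf6 (chrX:52912266-52956943), a chromatin-binding zinc finger protein, was at 4.10, 34.6, 10.8 and 18.1 CPM against 1.95, 3.33 and 5.39 CPM. Old replicate 3 lay above young replicate 1, so 7 of 8 old libraries were below all young ones. Phf6 fell by 2.33 (SE 0.37, adjusted p = 0.0131), and without young replicate 2 the value was -1.74 (adjusted p = 0.252).

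The same age difference was then read in controls at 48 h, in the hippocampus at 6 h, and in operated animals at 6 h. Stepped counts touched these too, with 4.11% and 9.93% ones in young hippocampal replicates 1 and 4 and 8.47% in operated old hemisphere replicate 6, so that only 2 young hippocampal libraries remained without them. No hemisphere library at 48 h was stepped. These called 11 of 12250 genes (0.0898%), 8 of 13703 (0.0584%) and 1 of 12760 (0.00784%). Of the 10 genes above, Lyz2 in the hippocampus was the one that passed again (1.27, SE 0.24, adjusted p = 0.0357). Hippocampal Lyz2 was at 39.2 to 52.2 CPM in the young and 65.4 to 172 CPM in the old, with no overlap. Without the stepped libraries the hippocampus gave 0 calls with edgeR (756 genes at an unadjusted p below 0.05), and Lyz2 gave 1.15 (SE 0.32, adjusted p = 0.412). The hippocampal libraries share their animals with the hemisphere libraries and so are no independent repeat.

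Apoe gave 0.79 (SE 0.41, adjusted p = 0.784) at 48 h, 2.01 (SE 0.44, adjusted p = 0.0964) in the hippocampus (1.80, SE 0.62, without the stepped libraries) and 1.54 (SE 0.45, adjusted p = 0.594) after surgery. At 48 h the old controls had 137 to 359 CPM and the young 50.9 to 349 CPM, with a young median of 59.4, so that at least 1 young library lay among the old. In the hippocampus Apoe was at 143 to 753 CPM in the old and at most 142 CPM in the young. Ifitm3 gave 1.78 (SE 0.44), 1.63 (SE 0.57) and 2.55 (SE 0.54), in the same order, with adjusted p between 0.174 and 0.426, and 0.95 (SE 0.70) in the hippocampus without the stepped libraries. Ifi27l2a gave 2.39 (SE 0.62, adjusted p = 0.205) in the hippocampus and 2.22 (SE 0.51, adjusted p = 0.344) after surgery, and at 48 h it was at 7.15 to 16.7 CPM in the old and 1.59 to 6.37 CPM in the young (adjusted p = 0.298). Lilrb4a gave 1.32 (SE 0.53) at 48 h and 1.21 (SE 0.52) in the hippocampus, (0.71, SE 0.61, without the stepped libraries), but -0.16 (SE 0.35) after surgery, where the young libraries were at 3.31 to 8.95 CPM and the old at 4.25 to 7.77 CPM.

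H2-Aa gave 0.96 (SE 0.54), 2.18 (SE 0.56) and 0.80 (SE 0.52), and H2-Q7 0.76 (SE 0.23), 0.69 (SE 0.35) and 0.90 (SE 0.32). Axl gave 2.12 (SE 0.44, adjusted p = 0.0541) at 48 h, 1.85 (SE 0.78) in the hippocampus (0.83, SE 0.78, without the stepped libraries) and 1.32 (SE 0.69) after surgery. P2ry12 gave -0.46 (SE 0.18) at 48 h, -0.12 (SE 0.19) in the hippocampus (-0.32, SE 0.23, without the stepped libraries) and -0.44 (SE 0.14) after surgery. Neither lower gene passed in any of the other comparisons. Phf6 gave 0.16 (SE 0.68), 1.04 (SE 0.58) and -0.04 (SE 0.44), and Ankrd26 -2.10 (SE 0.71), 0.41 (SE 0.99) and -1.13 (SE 0.68), with the hippocampal value of Ankrd26 at -0.56 (SE 1.15) without the stepped libraries. The homeostatic list had a median of -0.28 at 48 h, 0.06 in the hippocampus (19 of 26 positive) and -0.25 after surgery. The hippocampal median of that list turned to -0.17 (2 of 26 positive) without the stepped libraries. The interferon list had medians of 0.64, 0.52 and 0.84, and the disease-associated list of 0.44, 0.64 and 0.37 (for the same genes in the hippocampus without the stepped libraries, 0.81 and 0.39). At 48 h the disease-associated list was positive in 15 of 22 genes. Some list medians had the other sign at 48 h, among them immediate early (0.17, 20 of 22 positive) and nuclear respiratory chain (-0.12, 13 of 45 positive).

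Whether the age difference itself depended on time, region or surgery was tested as a difference of differences. At 48 h against 6 h, 1 of 14144 genes passed (0.00707%), which was the gene model Gm42427 and none of those named here. For hippocampus against hemisphere 0 of 13603 passed with edgeR (1102 at an unadjusted p below 0.05, and 23 with DESeq2), also over the 7 old and 2 young animals with no stepped library,, and for surgery against controls 0 of 12760 (510 at an unadjusted p below 0.05, and 0 with DESeq2). Lilrb4a after surgery gave -2.62 (SE 0.53, adjusted p = 0.506). The surgery comparison uses the control libraries on one side, so its value moves with them. Apoe gave -1.69 (SE 0.60, adjusted p = 0.920) for 48 h against 6 h. With SEs of this size these tests do not show that the age differences were equal.

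**Figure D5:**
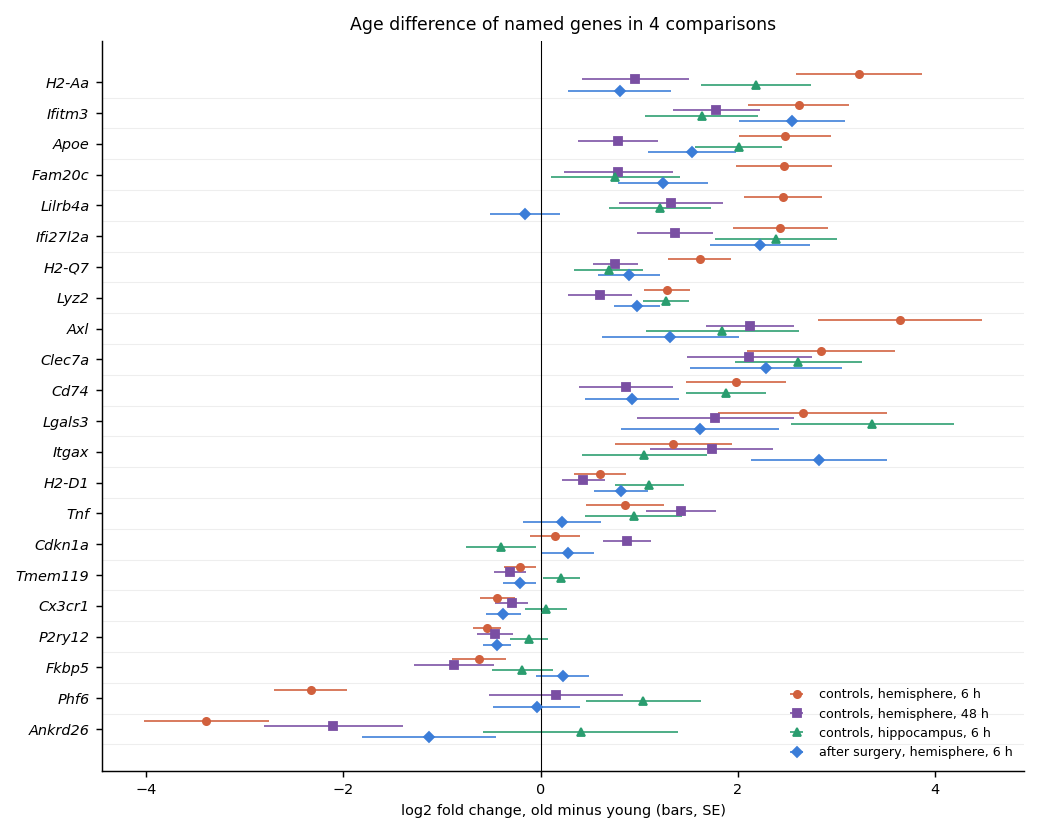
Log2 fold change, old over young, with its SE (bars) for 22 named genes in controls at 6 h, controls at 48 h, hippocampal controls at 6 h and operated animals at 6 h. Apoe, Ifitm3, Ifi27l2a, H2-Q7, H2-Aa and Axl, among others, are positive in all 4. Phf6 is clearly below 0 only in the hemisphere controls at 6 h.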

How the data were processed

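RNA of sorted microglia was read by a full-length Smart-seq2 protocol, per the labels' protocols. The authors deposited estimated counts per gene model on mm10, already whole numbers, and the submitters' processing notes name DESeq2 1.36.0 and R 4.2.1. Which aligner, counting tool, annotation release and strand setting they used is not given in the sources. Of 54532 gene IDs, 54409 matched a symbol.

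All 23 libraries of the 6 h hemisphere table, in 4 groups (old and young, control and surgery), were fitted together with edgeR 4.0.16 in R 4.3.3 (filterByExpr with a minimum count of 10, TMM factors, quasi-likelihood test, two-sided), and the old controls were contrasted with the young. The controls at 48 h were fitted in their own table in the same way, the hippocampus in its own, and the difference of 2 age differences in 1 fit. A gene was called at a Benjamini-Hochberg adjusted p below 0.05 over all genes tested. CPM are TMM-scaled. Total counts per library are given with the results, and each library's counts limit its precision. The replicate is the animal. Alternatives were DESeq2 1.42.0, limma-voom (limma 3.58.1), other scalings and filters, other sets of libraries, a replicate block leaving out each library, and leaving out libraries with under 25% ones among values of 1 to 3 (stepped counts, set after seeing the data).

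The text names the called genes with the 12 largest fold changes each way (mean log2 CPM 3 or more, without unnamed and mitochondrial models), every called member of a list, and 18 genes whatever their result. Fam20c, Phf6 and other list members were named after their values were seen. The comparison, the 23 programmes and the 13 marker lists were chosen with earlier results of these data known. Promoters come from RefSeq tables of GRCm38.p6. Plots were drawn with matplotlib 3.10.9.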

Additional observations from a re-analysis of the deposited data

Results flagged for a closer look

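In 58 groups of 4 or 8 control values that were searched for a library far from the others, 7 values were found. The limit used gives about 1 in 20 groups by chance for normally distributed values. Low counts are not so distributed, and a group with a single value above 0 is always flagged, so 7 cannot be read as an excess. Ankrd26 was 5.93 CPM in old replicate 1, where the other old controls had 1.17 to 3.12, and 78.7 CPM in young replicate 2, where the other young controls had 10.8 to 21.1. Phf6 was 5.39 CPM in old replicate 3 against 1.95 to 3.57 in the other old controls. Old replicate 3 was also the highest for Lgals3 (13.7 CPM, others 0 to 5.33) and Spp1 (18.6 CPM, others 0 to 8.03). Spp1 was 0.82 CPM in young replicate 1 and 0 in the other young controls. The median correlation of old replicate 7 with its group was 0.756, against 0.807 to 0.846 in the other old controls.

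The age difference of Gm42427, a gene model without a name, differed between 48 h and 6 h controls by -1.54 on the log2 scale (SE 0.26, edgeR adjusted p = 0.00541).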

How the results depend on the processing

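Against 10 called genes, DESeq2 called 47 and limma-voom 1, and the count was 0 with the old controls whose library numbers fall among those of the young. With the replicate number as a replicate block it was also 0 (681 genes at an unadjusted p below 0.05). Deviations of same-numbered libraries from their group means correlated at 0.11, 0.04, -0.13 and 0.01. These 4 values are too few to settle whether the numbers pair the samples. The best partner of each young library was sought among old replicates 1 to 4 only. For 2 of the 4 young libraries it was the old library of their own number. Leaving out 1 old library gave 2 to 12 calls and leaving out 1 young library 0 to 6, for a range of 0 to 12. Without the libraries of stepped counts, 2 genes were called in the main comparison and 0 in the hippocampus, and the other 5 comparisons kept their counts. The other 6 alternatives gave 9 to 11. At 48 h, 11 calls became 19 with DESeq2 and 7 with no filter on low counts. In the hippocampus 8 became 59 and 19, after surgery 1 became 14 and 7, in that order. The 48 h difference went from 1 to 0 with no filter, and the regional difference from 0 to 23 with DESeq2 and 115 with no filter. Of 512 alternative values of single named genes, 389 kept direction and side of the threshold, 117 lost the threshold, 5 gained it, and 1 turned: Cdkn1a, to -0.057 with the old controls among the library numbers of the young. The causes were not tested. Genes under about 10 counts per library, among them H2-Aa, Ifitm3, Fam20c and Lilrb4a in the young, have fold changes limited by depth.

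Over scalings and left-out libraries the list medians stayed at -0.34 to -0.24 (homeostatic), 0.62 to 0.84 (disease-associated), 0.65 to 1.04 (interferon), 0.28 to 0.49 (MHC class I), 0.69 to 1.10 (MHC class II) and 0.34 to 0.49 (ribosomal). Those of the complement, cytokine, inhibitory receptor, lysosome, lipid handling, cholesterol, heat shock, glucocorticoid, circadian and cell cycle lists changed sign. The list alternatives and that without stepped libraries were chosen after seeing the data.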

Other observations

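Among genes outside the lists, several had old libraries that all lay above or all below the young ones, without being called. They were chosen after their values were seen. Higher in old were Pdcd1, the inhibitory receptor PD-1 (log2 fold change 3.02, SE 0.71, adjusted p = 0.152, with 5.64 to 17.2 CPM in the old and a young mean of 1.23 ± 0.69, SD), Casp4, the inflammatory caspase (0.97, adjusted p = 0.210), the actin-capping protein Capg (1.34), the niacin receptor Hcar2 (2.27), the fatty acid receptor Gpr84 (0.68) and the receptor Slamf9 (0.80).

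Lower in old were Gpr165, an orphan receptor (-2.09, adjusted p = 0.131), Slc40a1, the iron exporter ferroportin (-0.81, adjusted p = 0.223), the transcription factor Maf (-0.54), the checkpoint molecule Vsir (-0.55), the leukotriene receptor Cysltr1 (-0.91) and the phosphatase Ptpn1 (-0.51). Of the 73 genes with all old libraries above the young, 29 were on a programme list, as a share 39.7%, against 3.43% of the genes tested, and of the 39 with all old libraries below the young 1 was (2.56%). Since the lists were chosen with results of these data known, this is a description.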
